A study of Mus musculus with 4 samples.

Results

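The genes described here encode 10 transcription factors known for steering monocytes and their progenitors toward dendritic cells: Zbtb46, Id2, Batf, Batf3, Runx3, Etv3, Etv6, Bcl6, Prdm1 and Spi1. They were chosen by gene symbol, with earlier results of these data known. Each was read by exactly 1 probe set that carried no other symbol, so the 10 genes are 10 probe sets, out of 22180 genes with a probe set of their own. RNA came from mouse Ly6C-high bone marrow monocytes, sorted from the pooled marrow of 3 mice and kept in culture for 24 h. The medium held 20 ng per ml of GM-CSF and as much interleukin 4. All-trans retinoic acid at 100 nM was present from the start in 2 samples, and the solvent DMSO in the 2 control samples. Both groups carried the same cytokines, and the labels give no strain, age or sex. The marrow was pooled, and the labels do not say whether replicates were separate cultures or separate pools. The p-values therefore rest on the spread between these 4 samples alone, and this spread may be technical.

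These factors work as a set of switches. Spi1 encodes PU.1, the ETS factor that opens myeloid enhancers. Id2 encodes a helix-loop-helix protein without a DNA-binding region that holds E proteins inactive, and Batf and Batf3 encode small AP-1 subunits that bind DNA with Jun proteins and with Irf4 or Irf8. Zbtb46, Bcl6, Prdm1, Etv3 and Etv6 encode mainly repressors, and Runx3 encodes a Runt factor that binds DNA with Cbfb. Zbtb46 marks conventional dendritic cells among immune cells and is also switched on in monocytes that GM-CSF and interleukin 4 drive toward dendritic cells. Retinoic acid acts through nuclear receptors, which themselves bind DNA at paired copies of the motif AGGTCA.

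With retinoic acid, 4 of the 10 genes fell, 0 rose and 6 did not pass the threshold (limma, Benjamini-Hochberg adjusted p under 0.05). Among those with a positive difference, Batf3 had an unadjusted p of 0.0356 and Batf one of 0.50. The genes that fell were Bcl6 (5.98-fold lower, to the level of background), Id2 (2.97-fold lower), Zbtb46 (2.88-fold lower) and Spi1 (1.58-fold lower). Among all tested probe sets, 1.19% were called lower and 0.904% higher; among genes, counted by their brightest probe set, 1.79% were called lower and 1.28% higher. The median log2 difference, retinoic acid minus DMSO, was -0.64 over the 10 genes and 0.00873 over all 22180 genes. In 8 of the 10 genes both retinoic acid arrays lay below both DMSO arrays, which held for 23.0% of all genes, and in 1, Batf3, both lay above, which held for 25.0%. In these bulk samples, fewer cells of a type and less RNA per cell cannot be told apart.

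**Figure D1:**
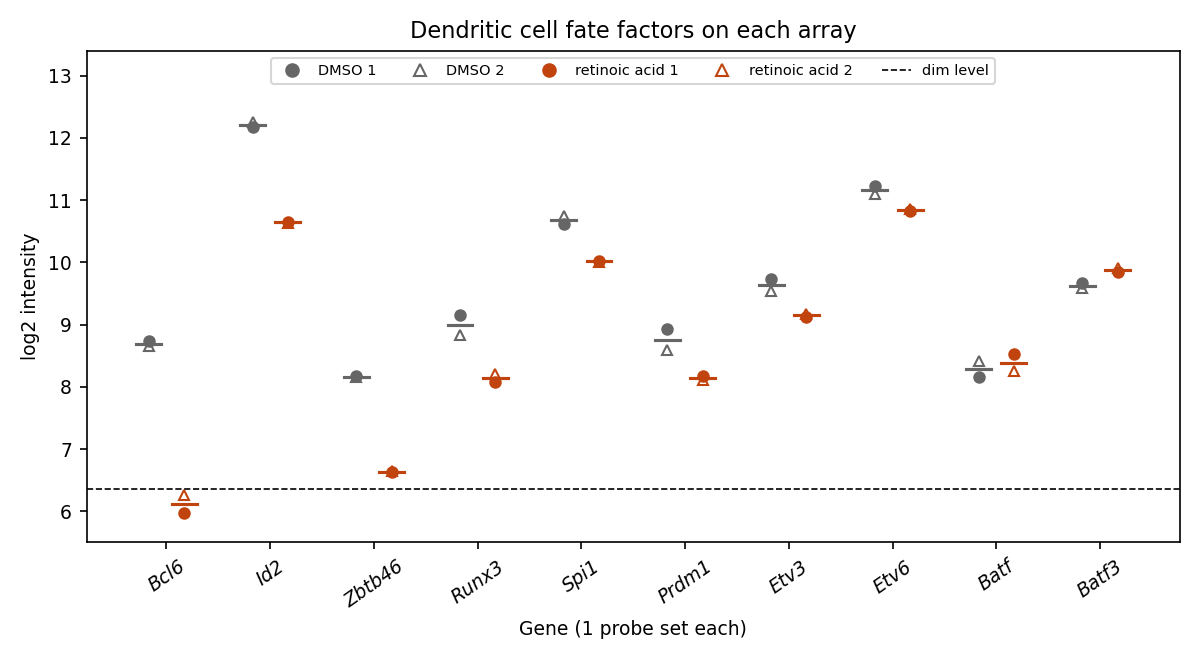
Log2 intensity (y axis) of the probe set of each of the 10 genes (x axis, ordered from the largest fall to the largest positive difference) on the 2 DMSO arrays (grey) and the 2 retinoic acid arrays (orange); circles are replicate 1, triangles replicate 2 and bars group means, and the dashed line is the dim level of 6.35. Bcl6 drops from 8.70 to 6.12, under the dashed line, while the arrays of Batf intermix.

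Bcl6, a BTB zinc finger repressor needed by germinal centre B cells and by cross-presenting dendritic cells, differed most among these genes. Its log2 intensity was 8.74 and 8.65 with DMSO and 5.97 and 6.26 with retinoic acid. The groups were 2.39 apart at their nearest arrays, and the retinoic acid arrays differed from each other by 0.29. The log2 difference was -2.58 ± 0.12 (limma moderated SE; 95% interval -2.90 to -2.25; adjusted p = 0.00488). Both retinoic acid values were under 6.35, called the dim level here: of 1405 probe sets for olfactory and vomeronasal receptors, genes not expected to be on in monocytes, 95% had a mean log2 intensity at or under it. The fold and the difference are therefore set against background; measured from the dim level itself, the DMSO mean was 5.08-fold brighter. Leaving out any 1 array kept the log2 difference of Bcl6 between -2.73 and -2.43. The call was kept without retinoic acid replicate 2 and lost without each of the other arrays. Most calls over all tested probe sets were lost in each of these fits, so a lost call there is not particular to these genes.

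Id2 and Zbtb46 fell by similar amounts. Id2 read 12.18 and 12.25 with DMSO and 10.65 and 10.64 with retinoic acid (log2 intensity). All DMSO values of Id2 lay at least 1.53 above the retinoic acid values, and its difference was -1.57 ± 0.08 (log2, SE; adjusted p = 0.00488). Zbtb46 read 8.17 and 8.15 with DMSO and 6.63 and 6.64 with retinoic acid, the latter just above the dim level. Replicates of Zbtb46 were apart by 0.02 and 0.01, against a difference of -1.53 ± 0.08 between treatments (log2, SE; adjusted p = 0.00488). Leaving out any 1 array moved the log2 difference of Id2 only between -1.61 and -1.54 and that of Zbtb46 between -1.53 and -1.52. With 3 arrays, however, limma did not call either gene, and most calls over all tested probe sets were lost as well.

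The sequences before the start sites of Bcl6 and Id2 are shown because these genes had the largest differences among the genes described; they are the 250 bases upstream of a RefSeq start, from the GRCm38.p6 assembly. Which start these cells used was not measured. Capitals mark matches to 7 motifs searched on both strands: AGGTCA, its direct repeats with a spacer of 5 or of 2 bases (retinoic acid receptor elements), the PU box GAGGAAGT, the AP-1 motif TGANTCA, the E-box CAGGTG and the Stat motif TTCNNNGAA. The AGGTCA repeats contain AGGTCA, so a match to a repeat is also a match to AGGTCA alone.
Bcl6, chr16:23988853-23989102, minus strand: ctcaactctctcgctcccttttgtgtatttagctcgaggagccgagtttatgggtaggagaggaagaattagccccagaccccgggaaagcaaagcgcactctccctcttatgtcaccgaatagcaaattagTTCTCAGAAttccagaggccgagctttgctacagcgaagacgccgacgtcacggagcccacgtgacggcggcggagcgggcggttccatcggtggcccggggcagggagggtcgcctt
Id2, chr12:25096093-25096342, minus strand: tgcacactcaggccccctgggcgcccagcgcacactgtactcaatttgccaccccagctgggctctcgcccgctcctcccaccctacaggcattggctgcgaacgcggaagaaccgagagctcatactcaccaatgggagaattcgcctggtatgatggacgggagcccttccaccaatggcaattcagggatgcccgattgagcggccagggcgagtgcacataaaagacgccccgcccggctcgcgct

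The Bcl6 window held a match to the Stat motif, TTCTCAGAA, beginning 118 bases before the start, and the Id2 window held no match to any of the 7. A further RefSeq start of Bcl6 (chr16:23981284-23981533, minus strand, for its 250 upstream bases) had 3 Stat motif matches, TTCCTGGAA, TTCTGTGAA and TTCCGGGAA, beginning 168, 122 and 88 bases before it. There were 11 such windows for 9 of these genes, and none for Spi1. The Stat motif was in 3 of these windows, in 2 genes (Bcl6 and Batf3), and in 7.02% of 32851 windows of the same length over all genes. AGGTCA was in the window of 1 gene, Zbtb46, and in 14.0% of all windows. Neither repeat and no PU box was found in the 11 windows; over all windows these were in 0.00913%, 0.00913% and 2.44%. The AP-1 motif was in the windows of Zbtb46 and Prdm1 (6.75% of all windows) and CAGGTG in those of Zbtb46, Runx3 and Prdm1 (17.2%). The Zbtb46 window ended in a pyrimidine-rich stretch and cag, the letters in which introns end, so it may not be a promoter.

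Spi1 was called close to the threshold. It read 10.61 and 10.75 with DMSO and 10.02 and 10.01 with retinoic acid (log2 intensity). The groups were 0.58 apart at their nearest arrays, and the difference was -0.66 ± 0.09 (log2, SE; 95% interval -0.90 to -0.43; adjusted p = 0.0438). Without any 1 array the Spi1 call was lost, as were most calls over all tested probe sets, while the difference stayed between -0.74 and -0.59. With 1625 unnamed probe sets of constant value kept in the limma fit, none of the 4 genes passed: the adjusted p was 0.0535 for Zbtb46, 0.0591 for Id2, 0.0704 for Bcl6 and 0.114 for Spi1. In that fit limma called 0 of 41345 probe sets, with 6260 at an unadjusted p under 0.05.

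**Figure D2:**
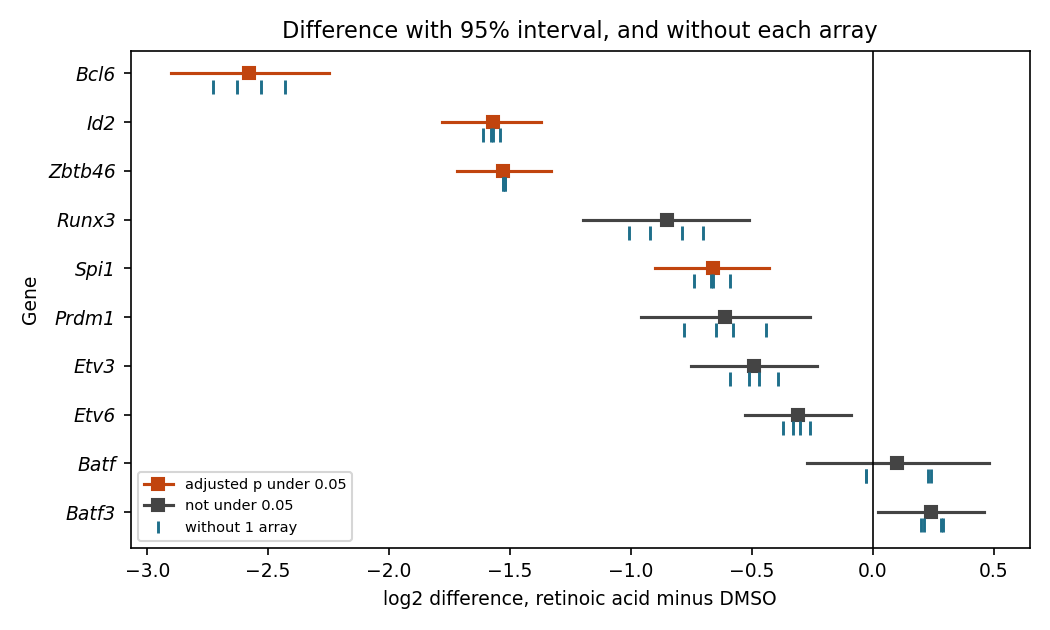
Log2 difference between retinoic acid and DMSO (x axis) for each of the 10 genes (y axis): squares are limma estimates from 4 arrays, horizontal lines their 95% intervals and blue ticks the estimates without each array in turn. The ticks of Zbtb46 lie on top of each other near -1.53, whereas those of Batf fall on both sides of 0.

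Runx3, a Runt factor of dendritic cells, natural killer cells and CD8 T cells, had a larger difference than Spi1 but did not pass. Its values were 9.15 and 8.84 with DMSO against 8.08 and 8.21 with retinoic acid (log2 intensity). The DMSO arrays were 0.31 apart, and the difference was -0.85 ± 0.13 (log2, SE; 95% interval -1.20 to -0.51; adjusted p = 0.0637). Runx3 passed when limma was fitted to probe sets with 1 symbol (adjusted p = 0.00782), to those above the dim level (0.0326), or with a variance trend (0.0429).

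Prdm1 encodes Blimp-1, a repressor found in plasma cells that also restrains dendritic cell activation. It read 8.93 and 8.59 with DMSO and 8.18 and 8.11 with retinoic acid (log2 intensity). DMSO replicate 1 was the highest array and DMSO replicate 2 lay 0.41 above the retinoic acid arrays. The difference was -0.61 ± 0.13 (log2, SE; adjusted p = 0.139), and without DMSO replicate 1 it was -0.44. Prdm1 and Bcl6 are known to repress each other in B cells; here both means were lower with retinoic acid, with Bcl6 passing and Prdm1 not.

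The ETS repressors Etv3 and Etv6, known in human monocytes for favouring dendritic cells over macrophages, did not pass. Etv3 read 9.74 and 9.54 with DMSO and 9.13 and 9.17 with retinoic acid, a log2 difference of -0.49 ± 0.10 (SE; adjusted p = 0.117). Etv6 read 11.22 and 11.10 against 10.83 and 10.86, a log2 difference of -0.31 ± 0.08 (SE; adjusted p = 0.211). The groups of both genes did not overlap. The interval of Etv6 ran from -0.53 to -0.09, so that a fall of more than 1.45-fold lay outside it. Etv3 and Prdm1 passed among probe sets with 1 symbol (adjusted p = 0.0269 and 0.0311); Etv6 passed in none of the fits run.

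The AP-1 subunits had positive differences that did not pass. Batf read 8.15 and 8.42 with DMSO and 8.52 and 8.26 with retinoic acid (log2 intensity), so the groups overlapped. Its difference was 0.10 ± 0.14 (log2, SE; 95% interval -0.27 to 0.48; adjusted p = 0.822). Without DMSO replicate 1 or retinoic acid replicate 1 it was -0.03, so no direction can be given for Batf. Batf3, required for cross-presenting dendritic cells, read 9.67 and 9.58 with DMSO and 9.84 and 9.91 with retinoic acid, a difference of 0.24 ± 0.08 (log2, SE; 95% interval 0.02 to 0.46; adjusted p = 0.321). A Batf3 rise above 1.38-fold lay outside its interval.

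Relatives and partners of these factors were taken as a list of 29 genes, of which 24 had a probe set of their own. Of these, 6 fell, 1 rose and 17 did not pass, with a median log2 difference of -0.06. Over all genes 1.79% were called lower and 1.28% higher, and the median was 0.00873. Id1 and Id3 fell, as Id2 did: Id1 read 9.34 and 9.28 with DMSO and 7.83 and 7.87 with retinoic acid (log2 difference -1.46 ± 0.08, SE; adjusted p = 0.00595), and Id3 differed by -0.63 ± 0.08 (adjusted p = 0.0407). Id4, under the dim level with DMSO, was not called (0.07 ± 0.08, adjusted p = 0.772). The E proteins they hold back did not pass, with log2 differences of 0.11 for Tcf3, -0.44 for Tcf4 and 0.24 for Tcf12 (adjusted p = 0.67, 0.118 and 0.309). Among AP-1 genes of the Jun and Fos families, Fosl2 (-0.86 ± 0.08), Jund (-0.78 ± 0.08) and Junb (-0.68 ± 0.09; log2, SE) fell, with adjusted p of 0.0174, 0.0237 and 0.0398. Jun (-0.55 ± 0.15) and Fos (-0.05 ± 0.12) did not pass (adjusted p = 0.224 and 0.901). The interferon regulatory factor partners of the Batf proteins went opposite ways: Irf4 differed by -0.72 ± 0.08 (adjusted p = 0.027) and Irf8 by 1.09 ± 0.11 (adjusted p = 0.02). The relatives Batf2 (0.06 ± 0.12), Bcl6b (0.08 ± 0.17), Runx1 (0.13 ± 0.09), Erf (-0.01 ± 0.09) and Spib (0.37 ± 0.20), and the Runt partner Cbfb (-0.06 ± 0.08), did not pass (log2, SE; adjusted p from 0.53 to 0.99). Bcl6b and Spib had arrays under the dim level. Without any 1 of the 4 arrays, 0 genes of this list were called.

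**Figure D3:**
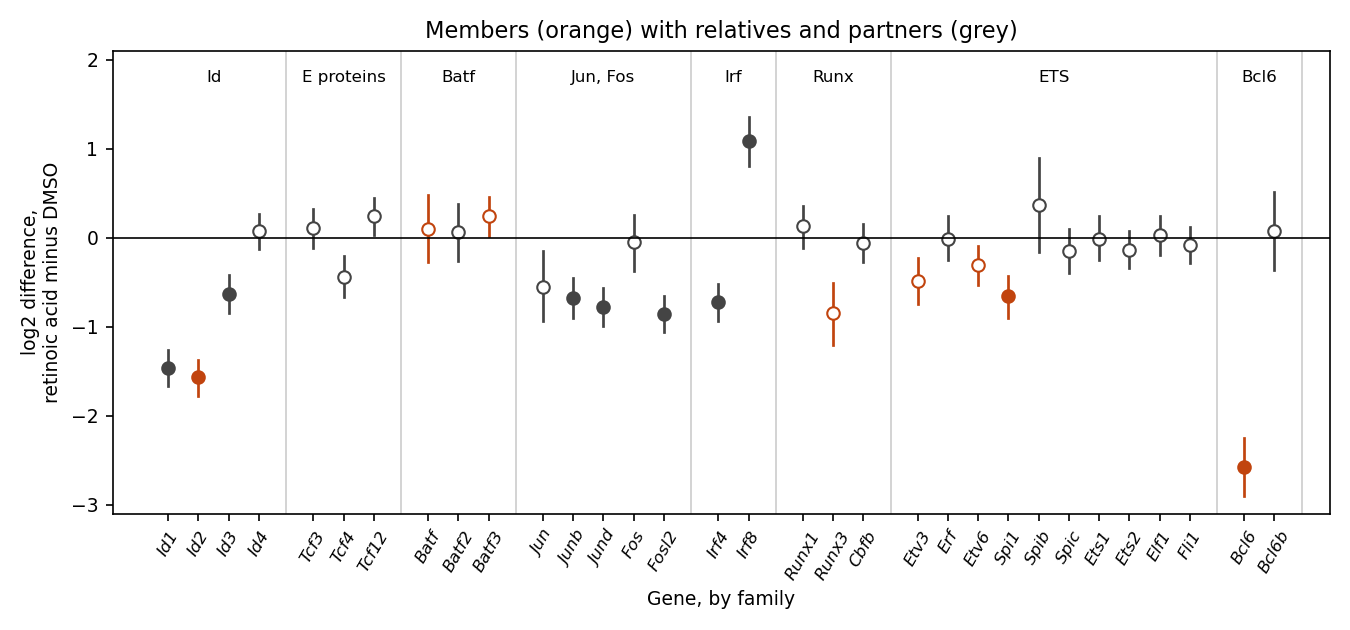
Log2 difference between retinoic acid and DMSO with its 95% interval (y axis) for the genes described (orange) and their relatives and partners (grey), by family (x axis); filled circles passed the limma threshold. Id1, Id2 and Id3 are filled and below 0, and Irf8 at 1.09 is the only filled circle above 0 in the plot.

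Other transcription factors of myeloid fate formed a list of 28 genes, 25 of them measured. Among these, 3 fell, 2 rose and 20 did not pass, against 1.79% called lower and 1.28% higher over all genes. The median log2 difference was -0.17, and 0.00873 over all genes. Klf4, a factor of monocytes and of a dendritic cell subset, fell most, from 9.51 and 9.78 to 7.64 and 7.78 (log2 intensity; adjusted p = 0.00826). The orphan nuclear receptor gene Nr4a3 (-1.06 ± 0.14) and the repressor gene Zeb1 (-0.67 ± 0.09; log2, SE) fell too, with adjusted p of 0.0431 and 0.0439. The repressor gene Gfi1 rose from 7.96 and 7.95 to 8.86 and 8.86 (adjusted p = 0.0142), and the aryl hydrocarbon receptor gene Ahr rose by 0.76 ± 0.08 (log2, SE; adjusted p = 0.0276). Without any 1 of the 4 arrays none of these 25 genes was called.

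Genes of conventional dendritic cells, in which Zbtb46 is the marker factor, were counted as a list of 22, of which 19 were measured. Of these, 6 fell, 1 rose and 12 did not pass, against 1.79% called lower and 1.28% higher over all genes. The median log2 difference was -0.43, and 0.00873 over all genes. Among the genes called lower, the largest differences were in P2ry10 (-3.72 ± 0.08), the SLAM receptor gene Slamf7 (-2.29 ± 0.08), the adaptor gene Traf1 (-1.81 ± 0.08), the lipid receptor gene Gpr132 (-1.08 ± 0.09) and the lymph node homing receptor gene Ccr7 (-0.86 ± 0.08; log2, SE; adjusted p from 0.00172 to 0.0175). P2ry10 has a similar neighbouring gene whose transcripts its probes may share, and its retinoic acid values were under the dim level. The peptidase gene Dpp4 rose by 1.12 ± 0.15 (adjusted p = 0.0426). Without DMSO replicate 1, DMSO replicate 2 or retinoic acid replicate 2, 2 genes of the list were called lower, and without retinoic acid replicate 1 only 1; none was called higher in those fits.

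Genes of cross-presenting dendritic cells, the type that needs Batf3 and Id2, gave 2 falls and no rise among 15 measured of 16. Over all genes 1.79% were called lower and 1.28% higher. The median log2 difference of the list was -0.12, and 0.00873 over all genes. The septin gene Septin3 fell from 9.36 and 9.26 to 6.55 and 6.48 (log2 intensity; adjusted p = 0.00208). Wdfy4, which cross-presentation requires, fell from 11.80 and 11.86 to 10.79 and 10.92 (adjusted p = 0.0178). On all 4 arrays, 5 of the 15 genes lay under the dim level. These included the defining markers Xcr1, Cadm1 and Tlr3, named after their values were seen. The listed gene Clec9a had no probe set of its own. Of all 39720 tested probe sets, 19783 had a mean above the dim level. Without any 1 array, 1 gene of this list was called lower.

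Known targets were counted for the repressors and for PU.1. Over all genes 1.79% were called lower and 1.28% higher, and the median log2 difference was 0.00873. Of 14 measured genes that Bcl6 or Prdm1 repress in other settings, 4 fell, 1 rose and 9 did not pass (median log2 difference -0.40). Targets of both repressors were pooled in this list, so its counts and median speak for neither alone. The cyclin gene Ccnd2 rose from 10.30 and 10.02 to 12.08 and 12.13 (log2 intensity; adjusted p = 0.0074). Ciita, the activator of MHC class II genes (-1.81 ± 0.11), the costimulatory gene Cd80 (-1.52 ± 0.14) and the chemokine genes Ccl7 (-2.11 ± 0.17) and Ccl12 (-2.34 ± 0.27) fell (log2, SE; adjusted p from 0.00726 to 0.0306), and the retinoic acid values of Ccl12 were under the dim level. Without DMSO replicate 1, 2 of these genes were called lower and none higher; without DMSO replicate 2, retinoic acid replicate 1 or retinoic acid replicate 2, 0 were called. Of 15 measured genes that PU.1 activates, 1 rose, none fell and 14 did not pass, with a median log2 difference of 0.20. The riser was Ncf1, an NADPH oxidase subunit gene (0.72 ± 0.09, log2, SE; adjusted p = 0.0334), which was not called without any 1 of the arrays.

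**Figure D4:**
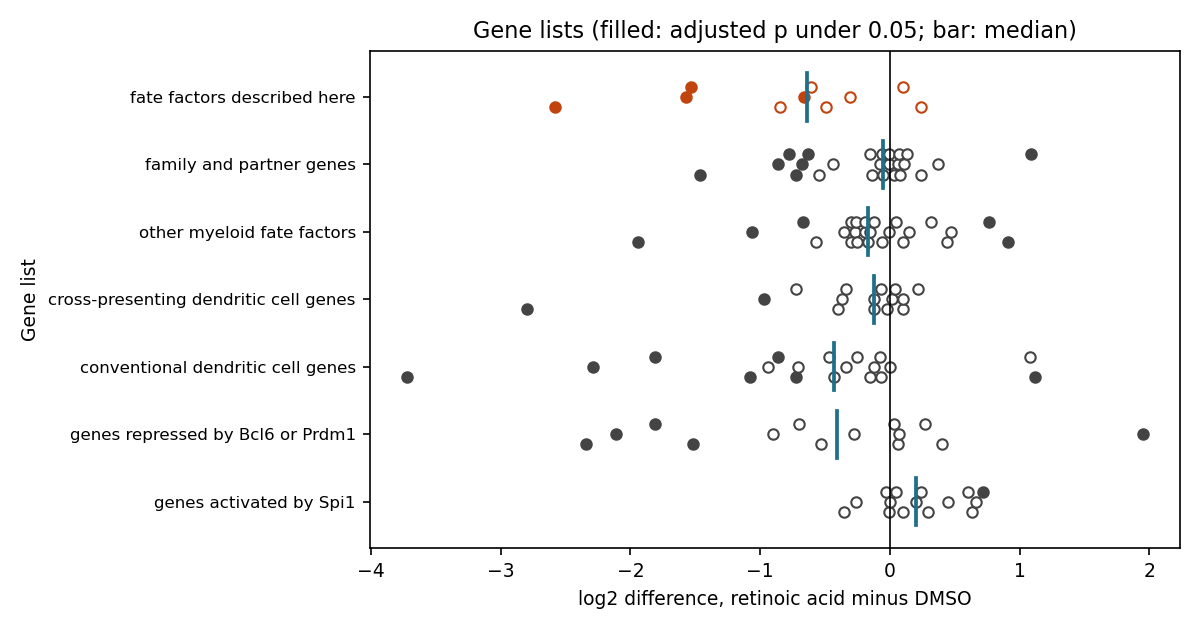
Log2 difference between retinoic acid and DMSO (x axis) of every measured gene of the 10 fate factors (orange) and 6 other lists (grey), 1 circle a gene, filled where it passed the limma threshold; vertical bars are medians, and vertical offsets within a list only separate circles. The fate factors have a median of -0.64, while the genes activated by Spi1 have one of 0.20.

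The genes whose 4-array profiles lay nearest to those of the members with the smallest adjusted p, which Zbtb46, Id2 and Bcl6 shared, were found by Euclidean distance between log2 values set to 0 at the DMSO mean. Nearest to Zbtb46 were the MHC class II gene H2-Ab1 (distance 0.0369), Slc29a3 (0.0824), Adam8 (0.0922) and Id1 (0.0964). H2-Ab1 (0.102) was also nearest to Id2, followed by Afdn (0.106), Adam8 (0.116) and Capn2 (0.117). Nearest to Bcl6 were the E-cadherin gene Cdh1 (0.109), L1cam (0.19), Arhgap26 (0.274) and Ahnak (0.314). With 4 arrays in 2 groups, this measure mainly finds genes with a fall of the same size.

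The calls differed between ways of fitting the same arrays. Among the 23521 probe sets with 1 symbol, 7 of the 10 genes were called lower, with Runx3, Etv3 and Prdm1 added to the 4; the share of all tested probe sets that passed rose as well, from 831 of 39720 to 1636 of 23521. Under the filter on dim probe sets and with a variance trend, 5 were called lower, with Runx3 added. The share of all probe sets that passed was also larger in those fits, at 1235 of 19783 and 1099 of 39720. None of the 10 genes was called higher in any fit.

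**Figure D5:**
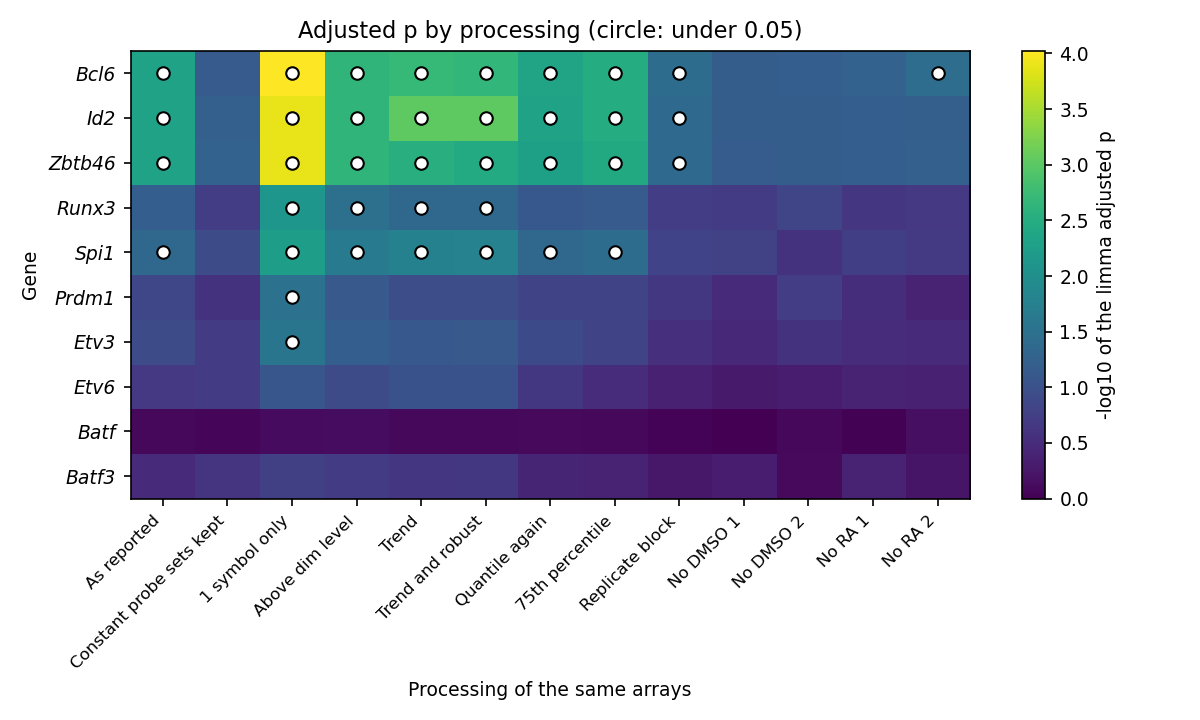
Limma adjusted p of each of the 10 genes (y axis) under each way of processing the same arrays (x axis), as colour on the -log10 scale; circles mark values under 0.05, "No" marks an array left out and RA is retinoic acid. Bcl6, Id2 and Zbtb46 carry circles in the same columns except the last, where only Bcl6 does, and Batf, Batf3 and Etv6 carry none.

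The median intensity of the 4 arrays was 80.0 to 81.8. The labelled cell type was checked against its markers: all 8 monocyte markers were above the dim level on every array, and Ly6c2 read 11.87 and 11.96 with DMSO and 11.77 and 11.67 with retinoic acid. Of these 8, 1 rose (the matrix gene Fn1, by 1.09 ± 0.14, log2, SE, limma adjusted p = 0.04) and none was called lower. Summed intensities were 29574 to 31524 with DMSO and 36208 to 36484 with retinoic acid. Of these sums, Fn1 gave 3564 and 4468 with DMSO and 8046 and 9026 with retinoic acid. Both retinoic acid arrays lay below both DMSO arrays in 4 of the 8 (23.0% of all genes). They lay above in 4 (25.0% of all genes). Markers of other marrow cells that also use these factors were checked as lists. Over all genes 1.79% were called lower and 1.28% higher. Of 5 measured B cell markers, 2 rose (Ighm by 1.67 and Cd79b by 0.65, log2) and none fell. The summed intensity of the 5 was 1431 to 1584 with DMSO and 4184 to 4292 with retinoic acid. Most of this sum was Ighm, at 1137 and 1293 with DMSO and 3910 and 3810 with retinoic acid. Cd79a was not called (limma adjusted p = 0.548), and Ms4a1 and Pax5 were under the dim level on every array. Of 9 neutrophil markers, 1 rose (Retnlg, under the dim level on every array) and none fell. Their sums were 14305 to 15338 with DMSO and 14372 to 14676 with retinoic acid. Elane, Mpo and Ngp were above 11 (log2) on every array of both groups, and Ltf, S100a8 and S100a9 lay between 10.24 and 11.14. Ly6g read 6.26 and 6.40 with DMSO and 6.66 and 6.18 with retinoic acid, on both sides of the dim level. Camp lay between 7.64 and 8.12 (log2) on the arrays. No T cell, natural killer cell, plasmacytoid dendritic cell, basophil or erythroid marker was called, and their list sums were at most 469 on any array. Under the dim level on all 4 arrays were 3 of 5 T cell, 5 of 6 natural killer cell and 3 of 5 plasmacytoid dendritic cell markers. So were 2 of 6 basophil and mast cell and 1 of 3 erythroid markers. Of 9 stress and handling genes, 1 fell (Dusp1, by 1.32 on the log2 scale; adjusted p = 0.00746), with sums of 3833 to 3975 with DMSO and 3166 to 3289 with retinoic acid. The part of these cells and of stress in the falls of Bcl6, Id2, Zbtb46 and Spi1 was not tested.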

How the data were processed

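Total RNA from 4 samples, 2 per treatment, was measured on 1-colour Affymetrix whole-transcript arrays from 250 ng of biotin-labelled RNA, per the labels' protocols. The authors deposited 1 intensity per probe set on a linear scale, made with Affymetrix Expression Console and RMA per the submitters' processing notes; versions and genome build are not given in the sources used here. RMA smooths background, so differences of dim genes may be understated, which was not measured here. The number of arrays limits the precision.

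Values were log2-transformed and not normalized again. Of 41345 probe sets, 1625 had the same value on all 4 arrays (1624 of them 4.78) and no symbol; they were left out, a choice known from earlier results to decide the calls, which left 39720. The treatments were compared by limma 3.58.1 (R 4.3.3; lmFit, eBayes, two-sided, no covariates, 2 residual degrees of freedom), with Benjamini-Hochberg adjustment over all tested probe sets and a threshold of 0.05. An exact permutation test cannot go below 0.333 here. Symbols came from the platform annotation: 23521 probe sets had 1, 1814 had several and 16010 are unnamed here. Listed genes other than the 10 were read by their brightest probe set; 160 of 178 were measured. Named genes were all called ones of a list, or the 5 with the largest differences, plus fixed relatives and partners; E proteins, Id4, Jun, Fos and exceptions marked in the text were named after their values were seen. The members and lists were chosen with earlier results of these data known. Alternatives were the probe sets kept, a filter on dim probe sets, variance trends, 2 further normalizations, the replicate number as a block and leaving out each array.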

Additional observations from a re-analysis of the deposited data

How the results depend on the processing

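None of the 10 differences changed sign under any alternative except that of Batf, which was -0.03 without retinoic acid replicate 1 or without DMSO replicate 1 (-0.03 to 0.24 without 1 array). The count of the 10 genes called lower was 4; it was 0 with constant probe sets kept, 7 among probe sets with 1 symbol and 0 to 1 without 1 array. It moved by no more than 1.5 times under the dim filter, variance trends, quantile normalization and 75th percentile scaling (4 to 5). Whether same-numbered arrays are paired is not known. Their deviations from group means correlated at -0.251 over probe sets, which with 2 arrays per group cannot decide it. With the replicate block, Spi1 was not called (adjusted p = 0.154), the count of the 10 genes called lower was 3, and 161 probe sets passed in place of 831. With the numbers crossed, chosen after seeing the data, it was 3 of the 10 and 457 probe sets.

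With constant probe sets kept, every list count was 0 in both directions. With the replicate block the counts of genes called lower were 1 for family and partner genes, 1 for other myeloid fate factors, 1 for cross-presenting and 3 for conventional dendritic cell genes and 1 for genes repressed by Bcl6 or Prdm1; called higher were 0 for family and partner genes, other myeloid factors, conventional dendritic cell genes and genes activated by Spi1. Among probe sets with 1 symbol, 4 other myeloid factors, 2 conventional dendritic cell genes and 3 genes activated by Spi1 were called higher, and 4 cross-presenting and 10 conventional dendritic cell genes lower. Above the dim level 2 conventional dendritic cell genes and 2 genes activated by Spi1 were called higher, and the latter was 2 with either variance trend. Without 1 array, genes called lower numbered 0 to 0 for family and partner genes and other myeloid factors, 1 to 1 for cross-presenting and 1 to 2 for conventional dendritic cell genes and 0 to 2 for genes repressed by Bcl6 or Prdm1, and called higher were 0 in every list. Fits without an array rest on 3 samples and assume that the lone array varies like the other group. In each of them most calls over all tested probe sets were lost too. The causes of these changes were not tested.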
